A study of Mus musculus with 12 samples.

Results

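The RNA exosome and the nonsense-mediated decay (NMD) machinery were examined in mouse male germ cells with and without the deadenylase subunit Pan2. The set held 33 genes out of 55291 in the deposited count table. They were chosen by name, as subunits and cofactors of the exosome, UPF and SMG factors, proteins of the exon junction complex and the ribosome rescue pair Pelo and Hbs1l. The rule itself uses no measured value, but the list was made with earlier results of these data known. All 33 passed the filter on low counts and were tested. RNA came from germ cells sorted by flow cytometry, whose source the labels give as sperm, from wildtype (WT) mice and from Pan2flox/-;Stra8-Cre mice (KO), which carry 1 deleted and 1 floxed Pan2 allele and a Cre recombinase driven in germ cells by the Stra8 promoter. From each genotype, MII spermatocytes (MII, cells between the meiotic divisions) and round spermatids (RS, their haploid daughters) gave 3 libraries each, 12 in all, made by an oligo(dT)-primed Smart-seq2 protocol. The labels give no age, strain or Cre status for the WT mice, and they do not say whether replicates came from separate animals, so the tests weigh differences against library-to-library spread that may be technical.

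The exosome is a barrel of RNase PH-like proteins with a cap, through which RNA is threaded to the 3′-to-5′ exonucleases DIS3 or DIS3L. Helicases choose its substrates, MTREX in the nucleus and the SKI complex in the cytoplasm. NMD degrades mRNAs whose translation stops upstream of an exon junction complex, by way of the helicase UPF1, its kinase SMG1 and proteins such as SMG5 and SMG6 that act on phosphorylated UPF1. PAN2, the nuclease of a deadenylase complex, shortens poly(A) tails before an mRNA is decapped or handed to the exosome. In male germ cells, NMD proteins are found in the chromatoid body, the RNA granule of round spermatids.

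In KO round spermatids 9 of the 33 genes passed the test (27.3%, beside 13.4% of all genes tested), 7 of them lower than in WT. The lower genes were the exosome cofactor Mphosph6, the SMG kinase complex members Smg1, Smg8 and Smg9, the exon junction genes Casc3 and Rbm8a, and the cytoplasmic exonuclease Dis3l. The nuclear helicase Mtrex and the nuclease Dis3 were higher. The calls of Smg1, Rbm8a, Dis3l and Dis3 were lost without the library labelled KO RS replicate 1, whose Pan2 level went against its label. Each was also lost without WT RS replicate 1, WT RS replicate 3 or KO RS replicate 2. In KO MII spermatocytes 3 genes passed (9.09%, beside 3.68% of all genes tested), with Mtrex higher and Mphosph6 and Exosc3 lower. Of these, only the Mtrex call held without any 1 library.

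Promoter windows are printed for 3 genes with calls in KO round spermatids that held without any 1 library, and for Magohb, which was lower in round spermatids than in MII spermatocytes in both genotypes. The RefSeq promoter table (GRCm38.p6, the mm10 assembly) held 27 of the 33 genes, in 29 windows of 300 bases, each with 250 bases before and 50 after the annotated start. Each sequence reads 5′ to 3′ along the gene, and capitals mark matches to the motifs that were searched on both strands. The window of Mphosph6 lies at chr8:117801925-117802224 on the minus strand and held no match. That of Mtrex, at chr13:112927331-112927630 on the minus strand, held the CRE core and the YY1 motif. That of Smg9, at chr7:24399378-24399677 on the plus strand, held the NRF1 motif. That of Magohb, at chr6:131293195-131293494 on the minus strand, held a full CRE, which itself contains the CRE core, and 2 further cores.
Mphosph6: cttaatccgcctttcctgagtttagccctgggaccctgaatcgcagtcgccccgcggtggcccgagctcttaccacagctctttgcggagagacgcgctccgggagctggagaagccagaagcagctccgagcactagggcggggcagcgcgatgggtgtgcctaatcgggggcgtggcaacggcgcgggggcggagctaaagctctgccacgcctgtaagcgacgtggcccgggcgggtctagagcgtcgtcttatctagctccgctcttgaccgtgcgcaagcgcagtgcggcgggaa
Mtrex: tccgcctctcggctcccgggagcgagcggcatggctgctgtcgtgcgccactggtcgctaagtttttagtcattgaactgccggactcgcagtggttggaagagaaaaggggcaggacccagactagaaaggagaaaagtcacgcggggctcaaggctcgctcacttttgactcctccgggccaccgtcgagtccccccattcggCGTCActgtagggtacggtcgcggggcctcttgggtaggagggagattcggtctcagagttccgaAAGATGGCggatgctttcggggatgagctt
Smg9: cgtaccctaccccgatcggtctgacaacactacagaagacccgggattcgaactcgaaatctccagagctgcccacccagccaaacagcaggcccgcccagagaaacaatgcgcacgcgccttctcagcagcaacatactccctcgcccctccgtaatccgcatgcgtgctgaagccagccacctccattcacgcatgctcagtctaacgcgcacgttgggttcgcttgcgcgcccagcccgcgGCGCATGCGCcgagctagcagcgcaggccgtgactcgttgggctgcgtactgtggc
Magohb: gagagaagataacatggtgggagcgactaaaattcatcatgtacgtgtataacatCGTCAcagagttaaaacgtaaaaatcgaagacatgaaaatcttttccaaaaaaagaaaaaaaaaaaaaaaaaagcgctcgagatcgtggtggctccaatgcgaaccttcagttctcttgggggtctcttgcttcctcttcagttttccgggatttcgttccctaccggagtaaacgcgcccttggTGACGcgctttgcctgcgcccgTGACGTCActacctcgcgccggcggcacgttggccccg

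Motif matches describe these letters and nothing more. The CRE (TGACGTCA) was present in 1.79% of all 32851 promoter windows and in 1 of the 29 windows of these genes, and the CRE core (TGACG) in 20.8% and 11. The NRF1 motif, a palindrome whose match is in capitals in the Smg9 window, was present in 0.971% of all windows and in 5 of the 29. The ETS motif (CCGGAAG) stood in 8.86% and 5, and the YY1 motif (AAGATGGC) in 2.75% and 3.

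Library totals ran from 13781370 to 38652066 counts. Pan2 was read first as a check of the labels, in CPM (counts divided by the library's total, scaled by TMM, and set on edgeR's common scale). It stood at 12.9, 17.1 and 13.3 CPM in WT MII and at 5.57, 7.10 and 5.07 in KO MII. In WT RS it stood at 9.93, 8.13 and 12.9 CPM and in the KO RS libraries at 22.6, 4.73 and 3.52. Above all 3 WT RS libraries, the one labelled KO RS replicate 1 went against its label, and values without it are given with the results that rest on it. With that library included, edgeR's test did not call Pan2 lower at either stage. Its log2 fold change was -1.28 in KO MII (SE 0.55, adjusted p = 0.227) and 0.003 in KO RS (SE 0.53, adjusted p = 0.998). The 12 markers of meiotic division summed to 2065 to 2870.5 CPM in WT RS and 1604 to 1920.1 CPM in KO RS, and 7 of the 12 were lower. Beside the marker counts in this paragraph, the same test called 1.83% of all genes higher and 1.86% lower in KO MII. In KO RS it called 6.06% higher and 7.39% lower. The 12 round spermatid markers summed to 4524 to 5905 CPM in WT RS and 6563 to 7393 in KO RS, with 5 higher. The 12 elongating spermatid markers summed to 6339 to 8666 CPM in WT MII and 4677 to 6491 in KO MII, and to 7347 to 10869.6 in WT RS and 5124 to 6076 in KO RS, with 5 of the 12 lower in KO at each stage. Markers of Sertoli cells, the somatic cells that surround germ cells, also moved with genotype. All 22 summed to 38.1 to 49.5 CPM in WT MII, 106 to 414 in KO MII, 14.9 to 20.8 in WT RS and 50.3 to 297 in KO RS, the highest in each genotype and stage pair being replicate 1 of the KO, and 1 of the 22 was at 0 in all libraries. Of the 21 tested, 2 were higher in KO MII and 10 in KO RS, and none was lower. The 11 markers of Leydig cells summed to 130 to 158 CPM in WT MII and 190 to 311 in KO MII, with 3 higher, and to 62.8 to 71.9 in WT RS and 78.0 to 80.2 in KO RS, with 5 higher. Not all somatic markers rose in KO MII. The 15 markers of peritubular myoid, endothelial and stromal cells summed to 95.9 to 165 CPM in WT MII and 51.7 to 115 in KO MII, with 2 lower. In RS they summed to 15.3 to 18.7 CPM in WT and 18.2 to 28.8 in KO, with 1 higher. The part of these shifts in the results that follow was not tested, and in sorted bulk RNA a change in the make-up of the cells and a change of RNA per cell cannot be told apart.

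Levels between genes were compared per length, as TPM, a gene's share of its library after division by the exon length in the deposited table. The median of the 33 genes was 22.1 TPM in WT MII and 21.5 in WT RS, against 4.06 and 4.17 over all 21291 genes tested. In WT MII the cap subunit Exosc3 led with 551 ± 130 TPM, followed by the barrel subunit Exosc5 with 134 ± 39.6 TPM and by Upf3a, one of a pair of UPF3 paralogs, with 120 ± 16.8 (mean ± SD, n = 3). The same genes led in WT RS in that order, with 320 ± 40.4, 171 ± 9.62 and 138 ± 11.1 TPM. Exosc5 and Upf3a lay within their spread of each other in WT MII. The lowest in both stages were the SKI scaffold Ttc37, with 1.23 ± 0.0820 TPM in WT MII and 0.860 ± 0.107 in WT RS, and the barrel subunits Exosc8, with 0.596 ± 0.0972 and 0.486 ± 0.263, and Exosc7, with 0.267 ± 0.169 and 0.0528 ± 0.0576. Within the listed core subunits alone, transcript levels thus ran from Exosc3 as the highest of all 33 genes to Exosc7 as the lowest. A further core subunit, Exosc6, was not among the 33 and did not pass the filter on low counts. Upf1, the central NMD helicase, stood at 3.75 ± 1.72 TPM in WT MII and 3.44 ± 1.56 in WT RS, below Upf3a in every library.

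**Figure D1:**
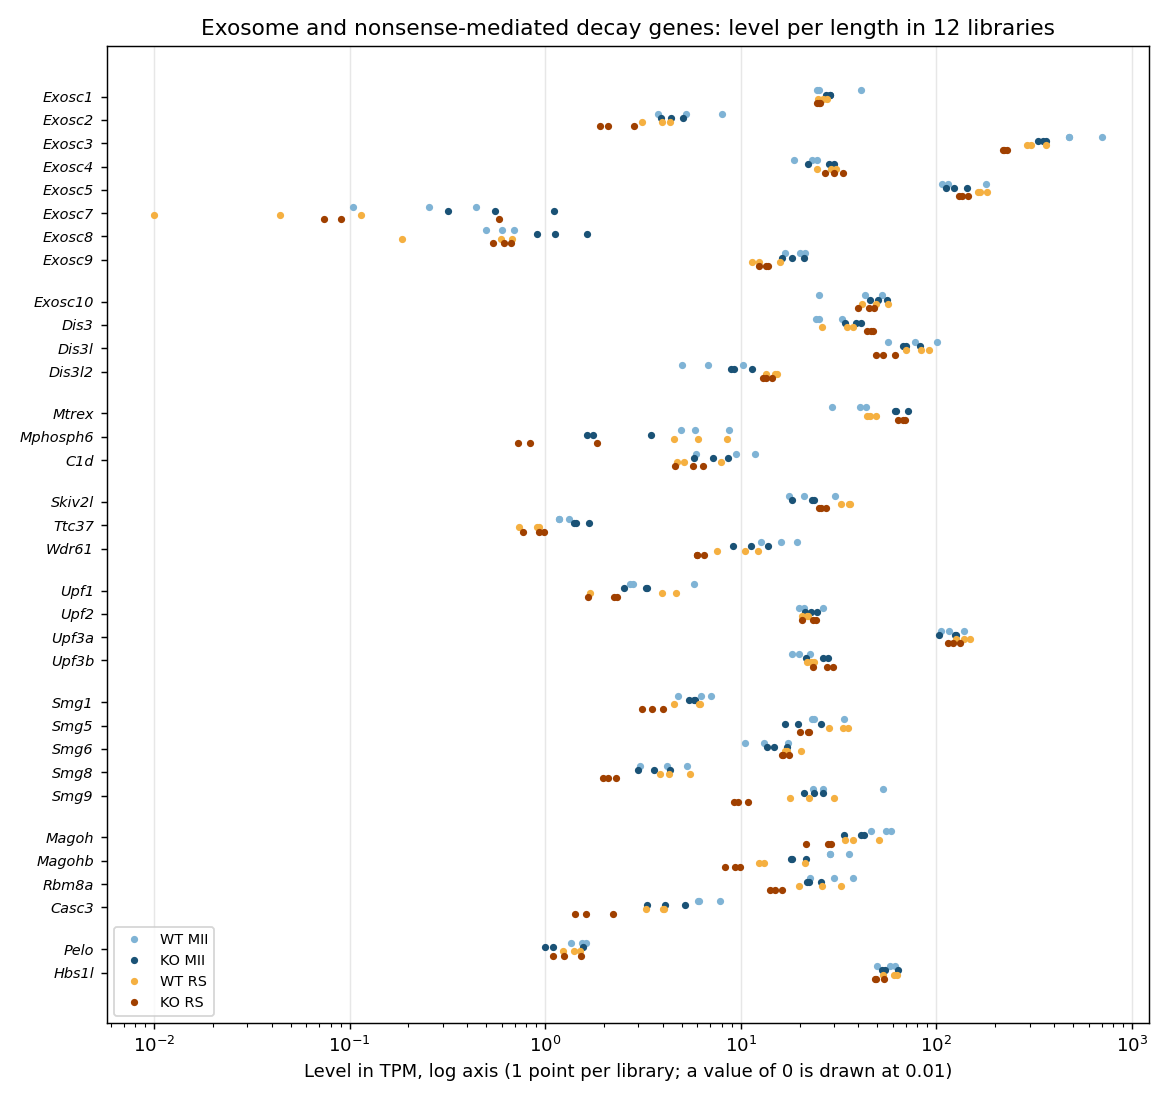
Transcript level of the 33 genes in the 12 libraries, in TPM on a log10 axis, with genes grouped by role and 1 point per library coloured by group; a value of 0 is drawn at 0.01 TPM. Exosc3 stands highest and Exosc7 lowest in both WT groups.

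The first comparison was KO against WT in MII spermatocytes, fitted with edgeR's quasi-likelihood test over all 12 libraries and called at a Benjamini-Hochberg adjusted p under 0.05 over 21291 genes. Of the 33 genes, 1 was higher and 2 were lower (9.09%), where 3.68% of all genes tested were called, 1.83% higher and 1.86% lower. The median log2 fold change of the 33 was -0.10, against -0.01 over all genes. The groups did not overlap for 4 genes higher and 5 lower in KO, against 22.2% of all genes in either direction (11.7% higher and 10.4% lower).

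Mtrex, the RNA helicase that feeds the nuclear exosome, stood at 127, 111 and 98.1 CPM in WT MII and at 184, 210 and 178 in KO MII. All 3 KO libraries lay above all 3 WT libraries. The log2 fold change was 0.77 (SE 0.13, adjusted p = 0.00302), a 1.70-fold rise, and the call held without any 1 library. Mtrex shares 7.06% of its exon bases with Plpp1 on the opposite strand, whose own log2 fold change was 0.04 (adjusted p = 0.936).

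Mphosph6 encodes the protein that ties that helicase to the exosome core. It stood at 6.57, 5.25 and 11.2 CPM in WT MII and at 3.98, 1.99 and 1.82 in KO MII. The groups did not overlap, and WT replicate 3 was the highest library. The log2 fold change was -1.58 (SE 0.38, adjusted p = 0.0278), 2.99-fold lower. Leaving out WT MII replicate 3 (-1.19, adjusted p = 0.143), KO MII replicate 2 (-1.41, adjusted p = 0.133) or KO MII replicate 3 (-1.39, adjusted p = 0.0900) ended the call.

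Exosc3, a cap subunit, stood at 285, 271 and 485 CPM in WT MII and at 203, 219 and 210.1 in KO MII. All KO libraries lay below all WT libraries, with WT replicate 3 far above the other two. The log2 fold change was -0.72 (SE 0.17, adjusted p = 0.0281), 1.65-fold lower. Without WT MII replicate 3 it was -0.40 (adjusted p = 0.0953), and the call was also lost without KO MII replicate 1 (adjusted p = 0.0912), 2 (adjusted p = 0.0984) or 3 (adjusted p = 0.0730) and in a fit of the 6 MII libraries alone (adjusted p = 0.0663).

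The other core subunits were not called. Exosc8, a barrel subunit, stood at 0.978, 1.11 and 1.57 CPM in WT MII and at 3.29, 2.23 and 1.78 in KO MII, with no overlap (0.97, SE 0.41, adjusted p = 0.193). The order of its KO libraries, replicate 1 highest and replicate 3 lowest, was also that of the Sertoli marker sum, and the part of that sum was not tested. Exosc8 shares 2.05% of its exon bases with Supt20 on the opposite strand, which drew 181658 counts over the 12 libraries against 488 for Exosc8. Supt20 had a log2 fold change of 0.32 in KO MII (adjusted p = 0.270), and the part of this overlap was not tested.

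None of the 13 UPF, SMG and exon junction genes was called in KO MII. Under an unadjusted p of 0.05, edgeR had 5 of the 13, beside 19.4% of all genes tested. Of the 4 exon junction genes, which mark spliced mRNAs, all 4 had negative values with a median log2 fold change of -0.59, and the groups did not overlap for 3. Over all genes tested, 10.4% were lower in KO MII without overlap. Magohb, which pairs with Rbm8a in the core of the complex, stood at 22.4, 21.0 and 32.2 CPM in WT MII and at 14.6, 17.0 and 13.9 in KO MII, a log2 fold change of -0.74 (SE 0.21, adjusted p = 0.0582). Casc3, a further core protein, stood at 11.7, 14.4 and 13.8 CPM in WT MII and at 10.3, 6.55 and 7.98 in KO MII (-0.69, SE 0.22, adjusted p = 0.0771). Neither passed the test.

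The same comparison in round spermatids called 2 of the 33 genes higher and 7 lower (27.3%), where 13.4% of all genes tested were called, 6.06% higher and 7.39% lower. The median log2 fold change of the 33 was -0.11, against -0.01 over all genes. The groups did not overlap for 3 genes higher and 14 lower, against 36.1% of all genes in either direction (17.8% higher and 18.3% lower). Without the library labelled KO RS replicate 1, 1 gene was higher and 4 were lower, and 4.95% of all genes were called. Those 5 calls (Mtrex, Mphosph6, Smg9, Casc3 and Smg8) also held without any other 1 library. Leaving out WT RS replicate 3 or KO RS replicate 2 instead also gave 1 gene higher and 4 lower. Over all genes, the calls then fell from 2863 to 1139 and 1347.

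**Figure D2:**
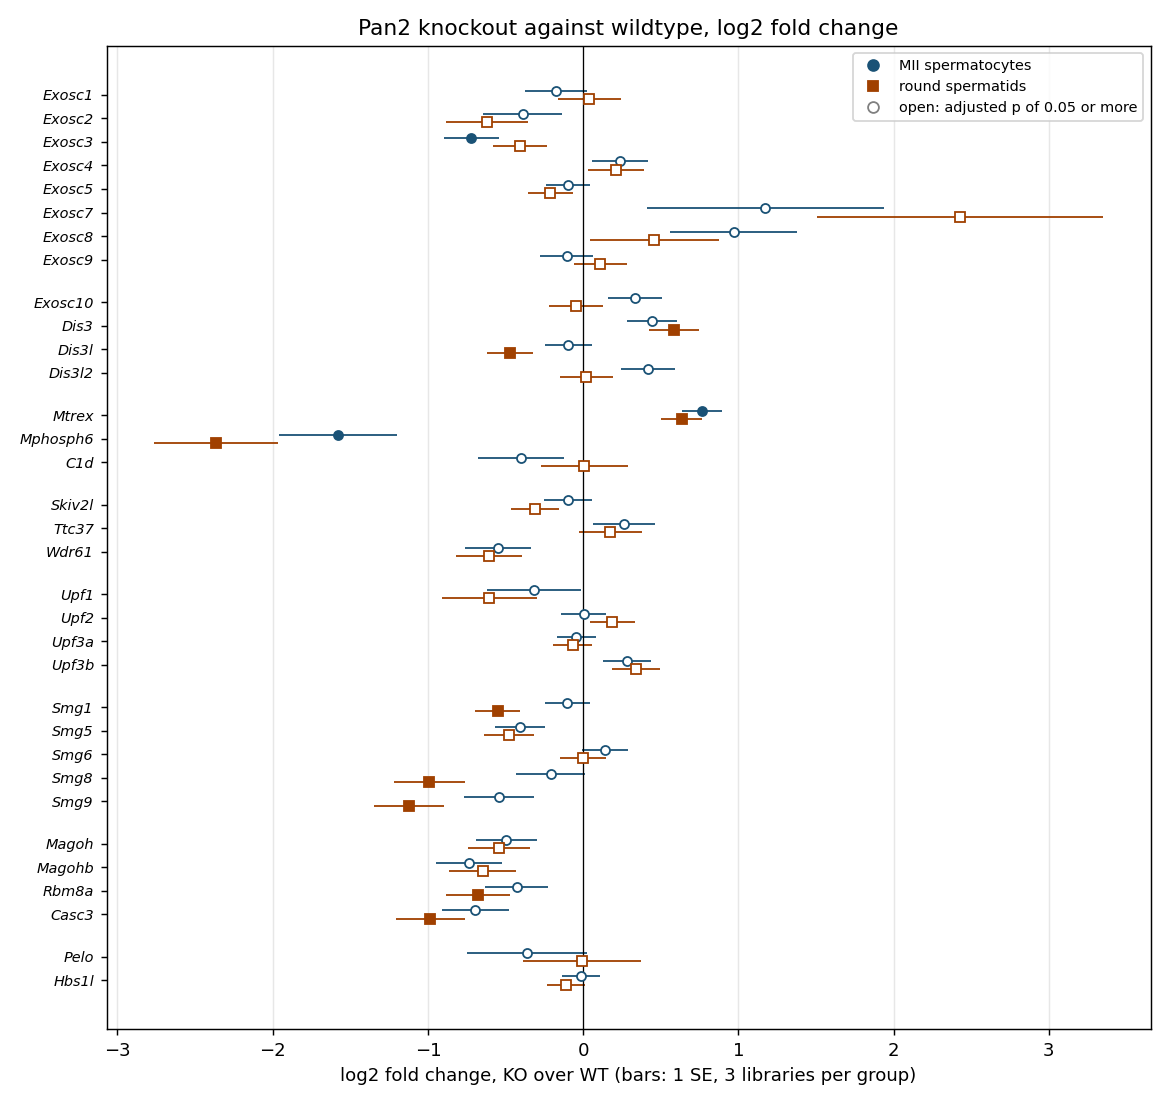
Log2 fold change of KO against WT for the 33 genes in MII spermatocytes and in round spermatids, with bars of ± 1 SE and genes grouped by role. Filled points passed the test, 3 in MII spermatocytes and 9 in round spermatids, and Mphosph6 and Mtrex are filled in both.

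Among the nuclear cofactors, Mphosph6 stood at 6.44, 9.80 and 4.90 CPM in WT RS (225, 316 and 131 counts) and at 2.19, 1.00 and 0.847 CPM in KO RS (68, 28 and 20 counts). The highest KO library, the one labelled replicate 1, stayed below the lowest WT library. The log2 fold change was -2.37 (SE 0.40, adjusted p = 0.00113), 5.16-fold lower, the furthest from 0 of the calls among the 33. A similar transcript, Gm11448, is 96.5% identical over the matched stretch but drew 25 counts over the 12 libraries against 1588 for Mphosph6. Mtrex stood at 136, 131 and 128 CPM in WT RS and at 194, 211 and 208 in KO RS. The groups were far apart and each was tight, with a log2 fold change of 0.63 (SE 0.13, adjusted p = 0.00423). Plpp1 on its opposite strand had -0.24 (adjusted p = 0.381). C1d, which binds the nuclease EXOSC10, had 0.01 (SE 0.28, adjusted p = 0.991).

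The ratio of Mtrex to Mphosph6 in TPM, which needs no scaling between libraries, separated the genotypes in both stages. It was 7.47, 8.19 and 3.38 in WT MII and 17.8, 40.7 and 37.8 in KO MII. In WT RS it was 8.17, 5.17 and 10.1 and in KO RS 34.4, 81.4 and 94.9. All 6 KO libraries lay above all 6 WT libraries, the library labelled KO RS replicate 1 included. Since both genes were called in opposite directions without overlap in each stage, the ratio restates those calls and is no further test.

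**Figure D3:**
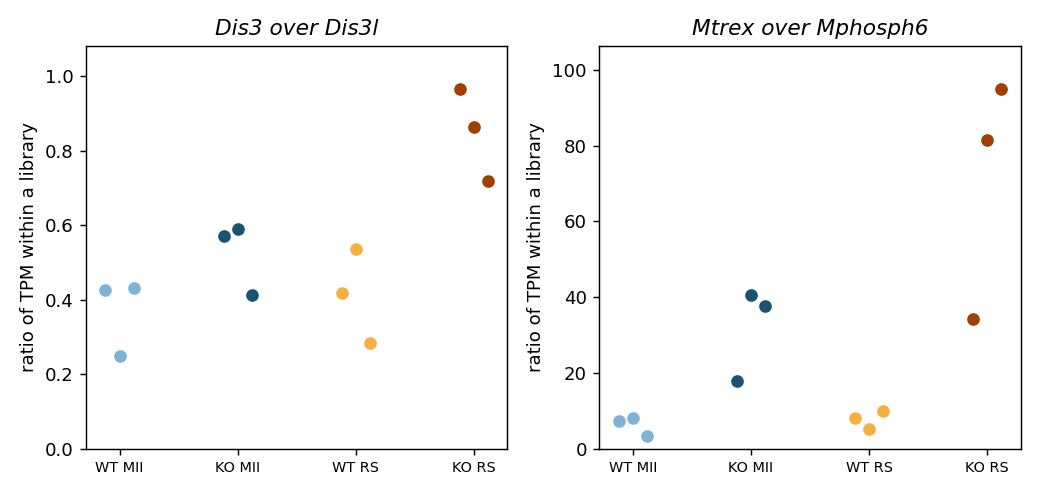
Ratio of Mtrex to Mphosph6 and of Dis3 to Dis3l in TPM in each of the 12 libraries, on linear axes from 0, 1 point per library by group. The Mtrex to Mphosph6 ratio is higher in every KO library than in every WT library, while the Dis3 to Dis3l ratio separates the genotypes in round spermatids and overlaps in MII spermatocytes. Each separation follows from the calls of the genes in the ratio.

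The catalytic subunits moved in opposite directions. Dis3, the nuclear processive exonuclease, stood at 117, 134 and 88.4 CPM in WT RS and at 177, 174 and 160.5 in KO RS, with no overlap and a log2 fold change of 0.59 (SE 0.16, adjusted p = 0.0218). Dis3l, its cytoplasmic paralog, stood at 197, 176 and 219 CPM in WT RS and at 129, 141 and 157 in KO RS, again with no overlap and a log2 fold change of -0.47 (SE 0.15, adjusted p = 0.0433). The Dis3 to Dis3l ratio in TPM was 0.418, 0.537 and 0.284 in WT RS and 0.965, 0.864 and 0.72 in KO RS, while in MII it was 0.427, 0.25 and 0.431 in WT and 0.572, 0.590 and 0.412 in KO. KO RS libraries thus came closer to equal levels of both transcripts, and the MII groups overlapped. The separation in RS follows from the calls of Dis3 and Dis3l and is no further test. The Dis3 call was lost without WT RS replicate 1 (adjusted p = 0.0770) or 3 (adjusted p = 0.140), or KO RS replicate 1 (adjusted p = 0.0877) or 2 (adjusted p = 0.0860). The Dis3l call was lost without any of WT RS replicates 1 and 3, the 3 KO RS libraries and KO MII replicate 2 (adjusted p = 0.0507 to 0.185).

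The other 2 members of this group were not called. Dis3l2, which degrades uridylated RNA without the exosome, had a log2 fold change of 0.42 in KO MII (SE 0.17, adjusted p = 0.187). Exosc10, the other nuclear nuclease of the exosome, had 0.34 in KO MII (SE 0.17, adjusted p = 0.297) and -0.05 in KO RS (SE 0.17, adjusted p = 0.895).

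None of the 8 core subunits was called in KO RS by edgeR, 3 had an unadjusted p under 0.05 (28.6% of all genes tested did), and their median log2 fold change was 0.08. Exosc1, Exosc4, Exosc5 and Exosc9 lay near 0, with log2 fold changes of 0.04, 0.21, -0.21 and 0.11, while Exosc2 had -0.62 (SE 0.26, adjusted p = 0.124) and Exosc8 0.46 (SE 0.42, adjusted p = 0.514). Exosc3 stood at 173, 178 and 211 CPM in WT RS and at 141, 141 and 142 in KO RS, a log2 fold change of -0.40 (SE 0.17, adjusted p = 0.129). Exosc7 had the highest value, 2.43 (SE 0.92, adjusted p = 0.0854), from 4, 0 and 8 counts in WT RS and 52, 6 and 6 in KO RS, so that it rested on the library labelled KO RS replicate 1. That library was also the highest of the 6 RS libraries in the sum of Sertoli markers. The 3 SKI genes, whose complex unwinds RNA for the cytoplasmic exosome, were not called in KO RS either. Of these, Wdr61 was closest, with -0.61 (SE 0.21, adjusted p = 0.0646), and it shares 33.9% of its exon bases with Dnaja4 on the opposite strand, which carried 540% of its counts.

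On the NMD side, 5 of the 13 UPF, SMG and exon junction genes were lower in KO RS and none was higher. Over all genes tested, 7.39% were called lower and 6.06% higher. The median log2 fold change of the 13 was -0.55. Groups did not overlap for 8 lower and 1 higher, beside 18.3% lower and 17.8% higher over all genes. Without the library labelled KO RS replicate 1, 3 of the 13 were lower, where 4.95% of all genes were called in either direction. The number was also 3 without WT RS replicate 3 or KO RS replicate 2. The calls fell on the SMG and exon junction genes. None of the 4 UPF genes was called, and Upf1 had a log2 fold change of -0.60 (SE 0.31, adjusted p = 0.202), Upf2 0.19 (SE 0.14, adjusted p = 0.427), Upf3a -0.07 (SE 0.13, adjusted p = 0.778) and Upf3b 0.34 (SE 0.16, adjusted p = 0.158).

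SMG9 and SMG8 form a complex with the kinase SMG1 and hold back its activity. Smg9 stood at 35.5, 30.7 and 48.2 CPM in WT RS and at 19.2, 16.5 and 16.7 in KO RS. The KO libraries were tight and all below WT, with a log2 fold change of -1.12 (SE 0.23, adjusted p = 0.00406). Smg8 stood at 5.95, 5.77 and 7.71 CPM in WT RS and at 3.22, 3.08 and 3.47 in KO RS, with a log2 fold change of -0.99 (SE 0.23, adjusted p = 0.00834) and no overlap. Smg1 stood at 63.9, 50.9 and 63.6 CPM in WT RS and at 40.5, 36.5 and 44.9 in KO RS, again with no overlap and a log2 fold change of -0.55 (SE 0.15, adjusted p = 0.0180). All 3 parts of the kinase complex were therefore lower together. The Smg1 call was lost without WT RS replicate 1 (adjusted p = 0.0642) or 3 (adjusted p = 0.0670), or KO RS replicate 1 (adjusted p = 0.0764) or 2 (adjusted p = 0.0916).

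The remaining SMG genes were not called. Smg5, an adaptor that binds phosphorylated UPF1, stood at 106, 91.7 and 101 CPM in WT RS and at 67.0, 75.6 and 71.8 in KO RS, with no overlap (-0.48, SE 0.16, adjusted p = 0.0535). Smg6, the endonuclease of the pathway, overlapped between the groups, at 73.9, 67.7 and 61.8 CPM in WT RS and 65.5, 67.9 and 69.6 in KO RS. Summed over the 5 SMG genes, the level was 88.4, 72.0 and 91.6 TPM in WT RS and 52.8, 53.2 and 55.6 in KO RS.

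**Figure D4:**
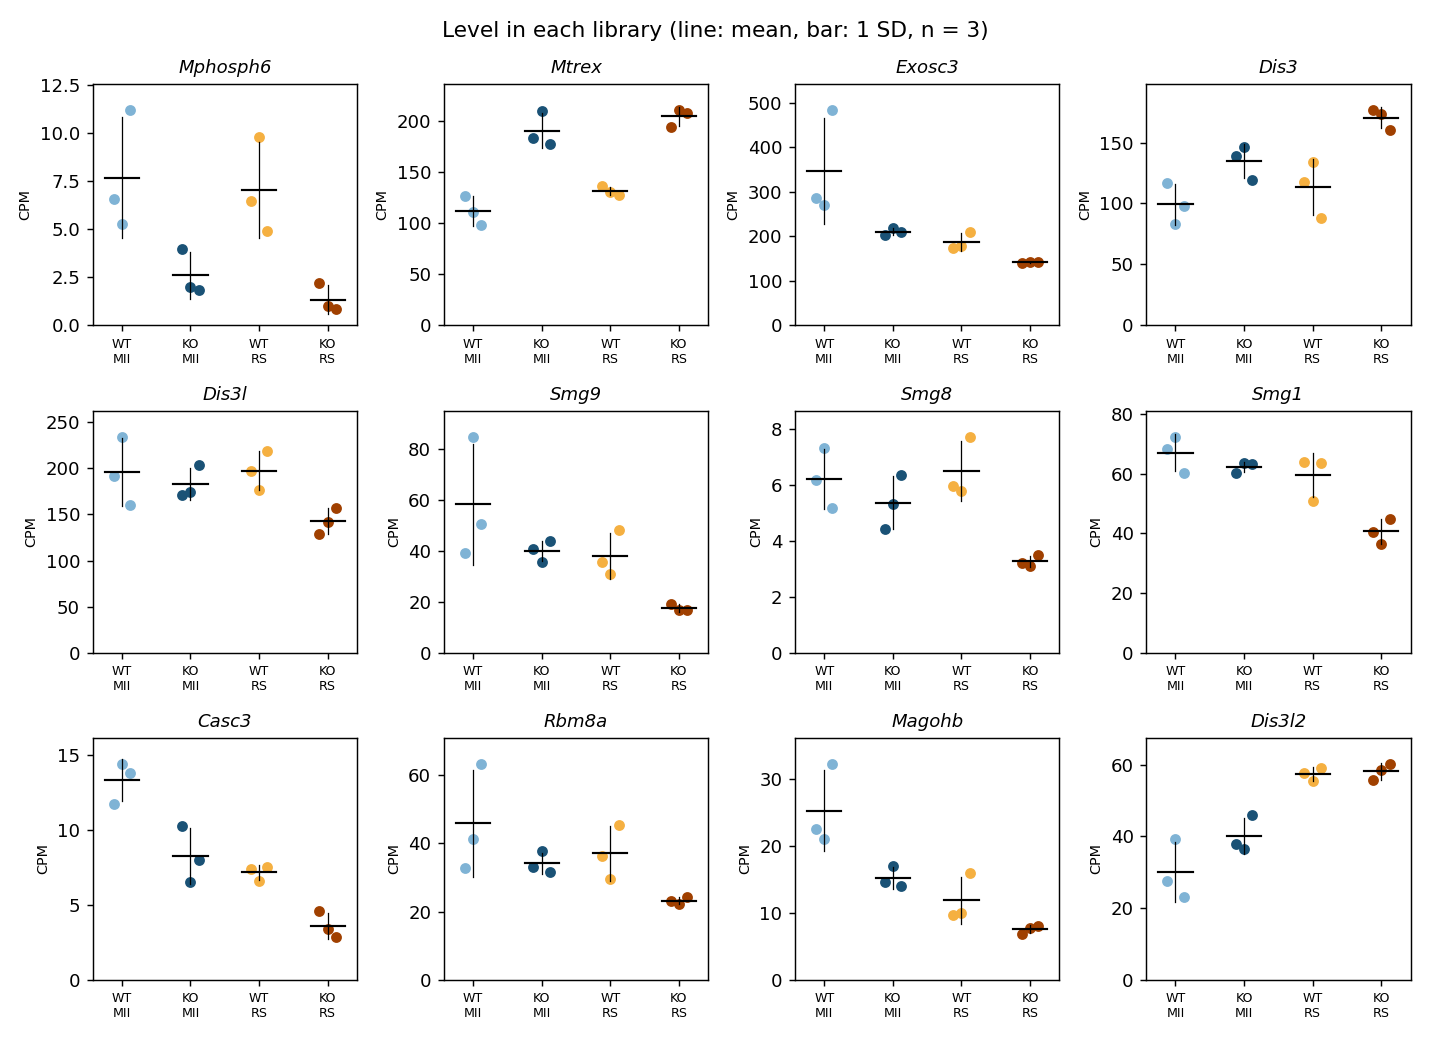
CPM in each of the 12 libraries for 12 of the genes, 1 panel per gene with its own axis from 0, points for libraries, horizontal lines for group means and vertical bars for 1 SD (n = 3). Mtrex is higher, and Mphosph6, Smg9, Smg8 and Casc3 are lower, in all 3 KO round spermatid libraries than in all 3 WT ones.

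All 4 exon junction genes had negative values in KO RS and groups that did not overlap, with a median of -0.66. Over all genes tested, 18.3% were lower in KO RS without overlap. Casc3 stood at 7.38, 6.57 and 7.56 CPM in WT RS and at 4.57, 3.37 and 2.88 in KO RS, with a log2 fold change of -0.99 (SE 0.22, adjusted p = 0.00772). Rbm8a, the Y14 protein of the core, stood at 36.2, 29.6 and 45.5 CPM in WT RS and at 23.1, 22.1 and 24.4 in KO RS (-0.68, SE 0.21, adjusted p = 0.0358). Its call was lost without WT RS replicate 1 (adjusted p = 0.0649) or 3 (adjusted p = 0.170), or KO RS replicate 1 (adjusted p = 0.110), 2 (adjusted p = 0.108) or 3 (adjusted p = 0.0659). The similar gene Rbm8a2 is 97.7% identical over the matched stretch and drew 36 counts over all libraries against 11835. The level summed over the 4 genes was 80.9, 69.7 and 109 TPM in WT RS and 53.5, 46.6 and 56.3 in KO RS, so every KO library lay below every WT library.

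The paralogs Magoh and Magohb encode interchangeable partners of the Rbm8a protein, and their sequences show how far reads can be told apart. Their longest open reading frames, taken from the GENCODE M21 transcripts of mm10, are 441 bases (Magoh, chromosome 4, plus strand) and 447 bases (Magohb, chromosome 6, minus strand). Over 441 aligned bases 84 differ, an identity of 81.0%, and the longest identical run is 17 bases. The first 150 aligned bases, printed below, hold 31 of the differences, which are in capitals. The frames were aligned from the stop codon back, so the Magohb stretch starts inside its longer frame and not at its first base.
Magoh: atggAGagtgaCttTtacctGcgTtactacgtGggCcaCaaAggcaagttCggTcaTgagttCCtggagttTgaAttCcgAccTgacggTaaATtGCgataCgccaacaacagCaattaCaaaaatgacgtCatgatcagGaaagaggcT
Magohb: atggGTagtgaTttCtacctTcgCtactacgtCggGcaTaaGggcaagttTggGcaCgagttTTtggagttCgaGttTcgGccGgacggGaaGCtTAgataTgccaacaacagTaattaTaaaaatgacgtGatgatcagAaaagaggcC

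Neither paralog was called in KO RS. Magohb stood at 9.70, 9.89 and 15.9 CPM in WT RS and at 6.88, 7.77 and 7.96 in KO RS (-0.65, SE 0.22, adjusted p = 0.0533). Magoh stood at 12.5, 12.2 and 17.1 CPM in WT RS and at 10.3, 8.02 and 10.4 in KO RS (-0.54, SE 0.20, adjusted p = 0.0752). Both sets of KO libraries lay below all WT libraries. The ribosome rescue pair was not called in either stage. Pelo had 14 to 43 counts a library and log2 fold changes of -0.36 in KO MII (SE 0.39, adjusted p = 0.656) and -0.01 in KO RS (SE 0.38, adjusted p = 0.992). It shares 67.1% of its exon bases with other annotated genes, 46.2% with Gm49395 on the same strand. Gm49395 drew 28 counts over the 12 libraries against 329 for Pelo, and the part of this overlap was not tested. Hbs1l, the GTPase that works with Pelo on stalled ribosomes, had a log2 fold change of -0.02 in KO MII (SE 0.12, adjusted p = 0.963) and -0.11 in KO RS (SE 0.12, adjusted p = 0.607).

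Whether the KO effect differed between the stages was tested as the RS effect minus the MII effect. None of the 33 genes was called by edgeR, where 0.0047% of all genes tested were, and neither DESeq2 nor limma-voom called one. At an unadjusted p under 0.05 edgeR had 2 of the 33, Smg8 (a difference of -0.78) and Smg1 (-0.45), both with an adjusted p of 0.735, and 6.6% of all genes tested passed that threshold. Calls found in round spermatids and not in MII spermatocytes are therefore not shown to belong to 1 stage. Of the genes called, Mtrex was higher and Mphosph6 lower in both stages.

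The stages themselves were compared within each genotype. In WT, 2 of the 33 genes were higher and 5 lower in round spermatids than in MII spermatocytes (21.2%), where 16.4% of all genes tested were called (7.74% higher and 8.68% lower), and the median log2 fold change was -0.17, against -0.03 over all genes. In KO, 1 was higher and 9 were lower (30.3%), where 12.3% of all genes were called (4.16% higher and 8.17% lower), with a median of -0.36 against -0.01. The stages did not overlap for 3 genes higher and 6 lower in WT, against 30.5% of all genes, and for 3 higher and 15 lower in KO, against 37% of all genes. Without the library labelled KO RS replicate 1, none of the 33 was called higher and 7 were lower in KO, where 7.7% of all genes were called. Of the lower genes 4 were shared (Casc3, Exosc3, Magohb and Wdr61), which is 4 of the 5 in WT and 4 of the 9 in KO. Dis3l2 was the gene called higher in both.

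**Figure D5:**
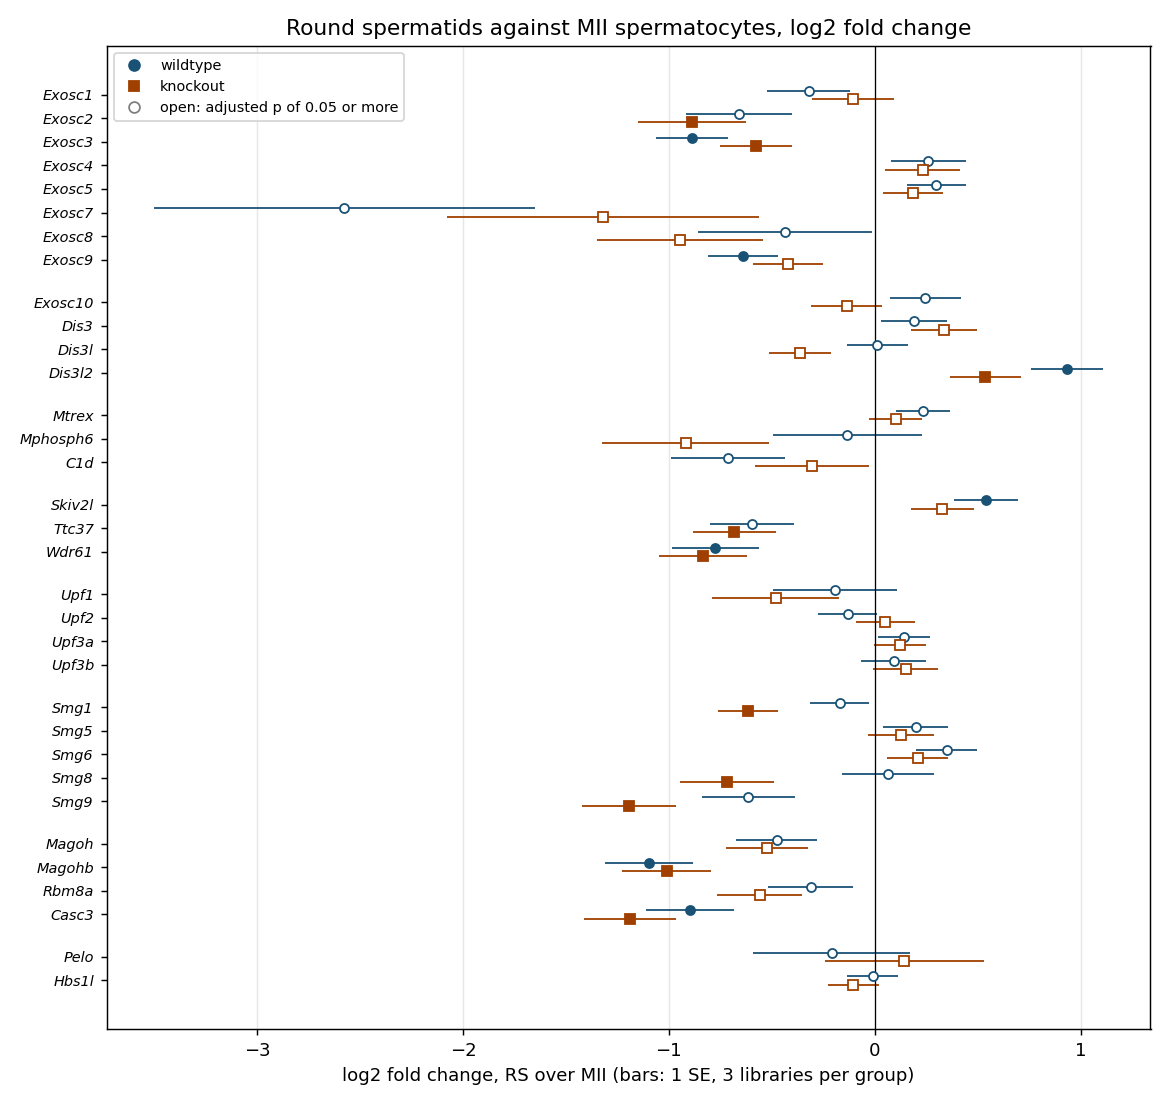
Log2 fold change of round spermatids against MII spermatocytes for the 33 genes, in WT and in KO, with bars of ± 1 SE and genes grouped by role. Filled points passed the test, 7 in WT and 10 in KO, and Dis3l2 is the filled point above 0 in both.

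In WT, Dis3l2 went from 27.5, 39.4 and 23.2 CPM in MII to 57.6, 55.4 and 59.1 in RS, with no overlap and a log2 fold change of 0.94 (SE 0.17, adjusted p = 0.00147). Magohb went from 22.4, 21.0 and 32.2 CPM to 9.70, 9.89 and 15.9, all RS libraries below all MII libraries (-1.10, SE 0.21, adjusted p = 0.00206). Exosc3 went from 285, 271 and 485 CPM to 173, 178 and 211 (-0.89, SE 0.17, adjusted p = 0.00221). Both were lower in every RS library, and these 3 calls held without any 1 library. Casc3 went from 11.7, 14.4 and 13.8 CPM to 7.38, 6.57 and 7.56, again with no overlap (-0.90, SE 0.22, adjusted p = 0.00823), and its call held too.

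The other 3 WT calls each rested on single libraries. Exosc9, a barrel subunit, stood at 36.1, 40.4 and 52.3 CPM in MII and at 25.3, 25 and 32.6 in RS (-0.64, SE 0.17, adjusted p = 0.0149), and leaving out WT MII replicate 3 (adjusted p = 0.0802) or WT RS replicate 1 (adjusted p = 0.0995) or 2 (adjusted p = 0.0593) ended the call. Wdr61 stood at 26.8, 32.2 and 47.3 CPM in MII and at 21.3, 16.4 and 24.8 in RS (-0.77, SE 0.21, adjusted p = 0.0171), and it was -0.51 without WT MII replicate 3 (adjusted p = 0.123), with the call also lost without WT RS replicate 1 (adjusted p = 0.0688) or 2 (adjusted p = 0.0790). In these genes all RS libraries lay below all MII libraries. Skiv2l, the SKI helicase, stood at 47.6, 64.8 and 45.9 CPM in MII and at 77.6, 74.8 and 77.9 in RS, with no overlap (0.54, SE 0.15, adjusted p = 0.0213), and leaving out WT MII replicate 1 (adjusted p = 0.0692) or 3 (adjusted p = 0.0798) or WT RS replicate 1 (adjusted p = 0.0651) ended the call.

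In KO, Casc3 went from 10.3, 6.55 and 7.98 CPM in MII to 4.57, 3.37 and 2.88 in RS (-1.19, SE 0.22, adjusted p = 0.00186). Smg9 went from 40.6, 35.8 and 43.7 CPM to 19.2, 16.5 and 16.7 (-1.19, SE 0.23, adjusted p = 0.00217). Magohb went from 14.6, 17.0 and 13.9 CPM to 6.88, 7.77 and 7.96 (-1.01, SE 0.22, adjusted p = 0.00490). In all 3 the stages did not overlap and the call held without any 1 library. Smg1 went from 60.4, 63.5 and 63.1 CPM to 40.5, 36.5 and 44.9, with no overlap (-0.62, SE 0.15, adjusted p = 0.00930), and its call was lost without KO RS replicate 2 (adjusted p = 0.0790).

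The remaining 6 KO calls had adjusted p-values of 0.0152 to 0.0471 and each was lost without at least 1 library. Wdr61 (-0.83, SE 0.21, adjusted p = 0.0152) was lost without KO MII replicate 2 (adjusted p = 0.0867) or KO RS replicate 1 (adjusted p = 0.0531) or 2 (adjusted p = 0.0672). Exosc2, a cap subunit (-0.89, adjusted p = 0.0318), Ttc37 (-0.68, adjusted p = 0.0318), Exosc3 (-0.57, adjusted p = 0.0362), Smg8 (-0.72, adjusted p = 0.0455) and Dis3l2 (0.54, adjusted p = 0.0471) were less steady. The Exosc2 call was lost without any 1 of the KO libraries other than KO RS replicate 1, and those of Ttc37, Exosc3, Smg8 and Dis3l2 without any 1 of the 6 KO libraries. Smg8 and Dis3l2 were also lost without WT RS replicate 1, and Smg8 without WT MII replicate 1. The adjusted p of these lost calls ran from 0.0513 to 0.184. The WT and KO stage comparisons have no library in common.

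A wider list of 49 genes was read beside the 33, of which 46 were tested. It held further genes of the same pathways and 11 transcripts known as NMD targets. In KO MII none was higher and 1 was lower (2.17%, beside 3.68% of all genes), with a median log2 fold change of 0.07. In KO RS 1 was higher and 8 were lower (19.6%, beside 13.4% of all genes), with a median of -0.16. The KO MII call (Gas5), the higher KO RS call (Atf3) and the lower KO RS calls of Atf4 and Snhg1 were targets and not pathway genes. Of these KO RS calls, only those of Pym1 and Atf4 held without the library labelled KO RS replicate 1, where 4.95% of all genes were called. The KO RS shares of the smaller lists below are from the fit with that library. None of the 10 further exosome and nuclear adaptor genes tested was called in either stage by edgeR, and the smallest adjusted p was that of the nuclear exonuclease Xrn2 in KO MII (0.50, SE 0.14, adjusted p = 0.0558).

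Of 17 further NMD and exon junction genes, 4 were lower in KO RS (23.5%, beside 13.4% of all genes) and none was higher. Pym1, which takes exon junction complexes off translated mRNAs, stood at 7.15, 5.46 and 7.86 CPM in WT RS and at 2.51, 3.73 and 2.97 in KO RS. The groups did not overlap, the log2 fold change was -1.15 (SE 0.23, adjusted p = 0.00341), and the call held without any 1 library. Eif4a3, the RNA-clamping helicase of the complex, stood at 102, 89.4 and 129 CPM in WT RS and at 64.0, 63.2 and 71.8 in KO RS (-0.69, SE 0.17, adjusted p = 0.0120). Its call was lost without WT RS replicate 3 (adjusted p = 0.0717) or KO RS replicate 1 (adjusted p = 0.0592) or 2 (adjusted p = 0.0525). Acin1, a peripheral protein of the complex, had -0.58 (SE 0.15, adjusted p = 0.0155), a call that ended without WT RS replicate 3 (adjusted p = 0.0666) or KO RS replicate 1 (adjusted p = 0.0891). The NMD factor Nbas had -0.51 (SE 0.15, adjusted p = 0.0316), a call that ended without WT RS replicate 1 or 3 or any KO RS library (adjusted p = 0.0546 to 0.127).

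Of 10 further ribosome rescue and cytoplasmic decay genes, 2 were lower in KO RS, both GTPases related to Hbs1l, a share of 20% beside 13.4% of all genes. Gtpbp2 stood at 38.7, 44.3 and 37.4 CPM in WT RS and at 28.4, 25.6 and 25.8 in KO RS (-0.59, SE 0.16, adjusted p = 0.0175), with no overlap. Gtpbp1 had -0.78 (SE 0.25, adjusted p = 0.0481). Gtpbp2 was lost without any 1 of the KO RS libraries (adjusted p = 0.0541 to 0.0728), and Gtpbp1 was lost without any of 8 libraries (adjusted p = 0.0515 to 0.169).

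Transcripts known as NMD targets, degraded because they carry short upstream reading frames or little coding sequence, were read as a readout next to the machinery. Of 11 listed, 9 were tested, and 11.1% were called in KO MII and 33.3% in KO RS, beside 3.68% and 13.4% of all genes. In KO MII none was higher and the small nucleolar RNA host transcript Gas5 was lower, from 116, 106 and 166 CPM in WT to 78.0, 82.7 and 96.3 (-0.59, SE 0.16, adjusted p = 0.0455). The groups did not overlap, and its call was lost without any of 8 libraries (adjusted p = 0.0590 to 0.173). In KO RS, Atf4, a transcription factor of the stress response with upstream reading frames, stood at 11.3, 10.7 and 13.6 CPM in WT and 5.92, 5.98 and 7.03 in KO. Its KO libraries all lay below WT, the log2 fold change was -0.91 (SE 0.18, adjusted p = 0.00341), and the call held without any 1 library. Snhg1, a further host transcript, stood at 3.78, 3.44 and 5.87 CPM in WT RS and 1.16, 1.83 and 2.97 in KO RS (-1.15, SE 0.31, adjusted p = 0.0211), and was lost without WT RS replicate 3 (adjusted p = 0.120) or KO RS replicate 1 (adjusted p = 0.121) or 2 (adjusted p = 0.0789). Atf3 was the target called higher (adjusted p = 0.0389), from 0, 4 and 0 counts in WT RS to 26, 12 and 4 in KO RS, and was lost without any of WT RS replicates 1 and 3, KO RS replicates 1 and 2 and KO MII replicate 2 (adjusted p = 0.0550 to 0.186).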

How the data were processed

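Poly(A) RNA of 12 libraries was sequenced, 3 for each of 4 groups, and grouped by GEO's labels. The authors deposited 1 table of raw counts per gene for 55291 genes with exon positions and lengths. The submitters' processing notes name featureCounts 2.0.2, STAR 2.7.10a, DESeq2 and Trim Galore 0.6.7, with the mm10 genome. Not given in the sources used here: strandedness, the release of the annotation and how multi-mapping reads were counted. Reads of overlapping genes, and of genes with a near-identical copy, may therefore be split or shared. From those counts, genes passing edgeR's filterByExpr (minimum count 10, total 15) were scaled by TMM and fitted with robust quasi-likelihood models on 4 group means (R 4.3.3, edgeR 4.0.16), with Benjamini-Hochberg adjustment over all 21291 genes tested and 8 residual degrees of freedom. Each SE was taken as the absolute log2 fold change divided by the square root of its F value. Exact permutation of 3 libraries against 3 cannot give a p below 0.1, so none is reported. Depth was 13781370 to 38652066 counts a library, counting error being small for all but low genes beside the spread between libraries (biological coefficient of variation 22.3%). Within groups, log2 levels correlated at 0.965 to 0.983 and no pair of libraries agreed within sampling noise. TPM was computed from deposited exon lengths. Alternatives used DESeq2 1.42.0 and limma 3.58.1. The members and the gene and marker lists were chosen with earlier results of these data known. Full values are given for every gene of the 33 called in a KO comparison and the 3 with the smallest adjusted p, for up to 8 in each stage comparison, and for the 3 highest and 3 lowest by TPM. Other pathway genes and NMD targets are named where called, or the 1 nearest to a call. Genes named outside this rule (near misses, Upf1 and overlapping genes among them) were chosen after their values were seen. The fit was checked on simulated counts.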

Additional observations from a re-analysis of the deposited data

How the results depend on the processing

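None of the results followed through the alternatives changed sign: the calls, and in each KO comparison the 3 smallest adjusted p among the 33. Among uncalled genes, total-count scaling turned Upf2 in KO MII from 0.01 to -0.02 and, in KO RS, C1d from 0.01 to -0.06, Exosc1 from 0.04 to -0.03 and Dis3l2 from 0.02 to -0.05. Of 29 calls among the 33 genes over the 4 comparisons, 29 were kept with DESeq2's size factors, a filter of 5 CPM in 3 libraries, DESeq2's own test, or without mitochondrial and the top 10 genes, 28 with total-count scaling or limma-voom, 27 without a filter, 26 in fits of the 6 libraries compared, and 18 to 29 without 1 library. The number of the 33 called in KO MII, 3, became 5 with DESeq2. The number of NMD genes lower in KO RS, 5, became 8 with total-count scaling, which gave 2 genes higher and 11 lower among the 33 (2 and 7 as reported); the cause was not tested. Without 1 library in turn, calls among the 33 ran from 1 to 5 in KO MII, 5 to 13 in KO RS, 0 to 0 for the difference, 4 to 12 for the stages in WT and 3 to 11 in KO, and NMD genes lower in KO RS from 3 to 8. Over all genes, 784 calls in KO MII became 1440 without a filter, 1468 with DESeq2, 403 with 6 libraries and 147 to 976 without 1 library. The 2863 calls in KO RS ran from 1080 to 3573 without 1 library. The 3497 calls between stages in WT became 2108 with 6 libraries and 1776 to 3980 without 1 library, and the 2625 in KO became 4451 and 1096 to 3286. The 1 call of the difference became 65 without a filter, 21 with DESeq2, and 0 with 5 CPM or limma-voom.

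Deviations of same-numbered libraries correlated at -0.143 to 0.0445 between genotypes in MII and 0.0101 to 0.155 in RS. Between stages they correlated at -0.203 to 0.0377 in WT and 0.0836 to 0.287 in KO. Libraries of unlike number had -0.0886 to 0.126, -0.154 to 0.0742, -0.103 to 0.195 and -0.238 to 0.0901 in the same order. Same-numbered libraries thus reached higher between genotypes in RS and between stages in KO, where pairing is not excluded. The main fit used no pairing. With the replicate block, calls among the 33 were 3 in KO MII, 8 in KO RS, 0 for the difference and 8 for the stages in each genotype, and 5 NMD genes were lower in KO RS. It kept 26 of the 29 calls and ended those of Dis3l in KO RS (adjusted p = 0.0533) and of Smg8 and Dis3l2 between stages in KO (adjusted p = 0.0614 each). Exosc7, Exosc8 and Pelo, with few counts a library, allow no firm statement on small changes.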
